A study of Mus musculus with 2 samples.

Results

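DEAD and DEAH box helicases are enzymes that use ATP to unwind short RNA duplexes or to strip proteins from RNA, and they are named after the amino acids of a conserved motif. The genes were taken from the arrays by name, as every gene spot whose name was Ddx or Dhx followed by a number, with a pair of family genes not analysed here. This gave 50 gene names read by 91 probes, of 28090 gene names and 41174 probes on the array. After a filter on dim probes, 40 of the 50 helicase genes were tested, among 11760 genes in all.

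RNA of primary epidermal keratinocytes from K14-caSmad1 mice was compared with RNA of the same cells from wild-type mice. K14-caSmad1 mice overexpress a constitutively active form of Smad1, the transcription factor that carries bone morphogenetic protein (BMP) signals, and K14 names the keratin 14 promoter, which is active in basal keratinocytes. Both kinds of mice were of the FVB/NJ strain and 20 days old, and the tissue was epidermis. The samples were hybridised on 2 two-colour arrays with K14-caSmad1 RNA in Cy5 and wild-type RNA in Cy3 on both, so that any dye effect cannot be told apart from genotype. Per the labels the arrays are biological replicates, and neither the number of animals behind an RNA sample nor their sex is given there.

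Each helicase works at particular steps in the life of RNA. DEAH members of the spliceosome push it from one stage to the next and take it apart at the end, many DEAD members act in the nucleolus on the precursor of ribosomal RNA, and others serve mRNA export, translation, decay and the sensing of viral RNA. In human epidermis DDX6, a translational repressor, is known to hold progenitor cells in the undifferentiated state. The Ddx5 protein has been found together with Smad proteins in the complex that cuts microRNA precursors in human vascular smooth muscle cells. The members were ordered by such roles.

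The arrays were close repeats of each other. The log2 ratios of 12300 probes with 1 spot differed between arrays with an SD of 0.0946, against 0.106 predicted from spot noise. For 92 repeated probes, whose means are more precise, the SD was 0.0523 against 0.0336 predicted. The first SD was thus under spot noise and the second above it. Since separate animals are not shown by the labels, the arrays were counted as 1 sample. Ratios are log2 of K14-caSmad1 over wild type, given for replicates 1 and 2 and as their mean, with no error between animals, and a p-value of limma says only how well the arrays repeated. A gene was called where both arrays showed a difference of 1.5-fold or more with the same sign, and only called genes are said to have risen or fallen.

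Helicase genes differed little between K14-caSmad1 and wild-type keratinocytes. Of the 40 tested, 6 were called, which is 15%, while 32.7% of all genes tested were called. Ddx21, Dhx15, Ddx42 and Ddx1 rose, and Dhx34 and Dhx8 fell. The calls for a rise were 4 of 40 helicases (10%) against 13.2% of all genes, and those for a fall were 2 of 40 (5%) against 19.5% of all genes. At 2-fold 0 helicases were called with this processing, against 13.9% of all genes, 4.08% higher and 9.8% lower in K14-caSmad1 cells. Limma's adjusted p was under 0.05 for 18 helicases with a higher and 12 with a lower value in K14-caSmad1 cells, together 75%. Over all genes it was so for 86.9%, 40.7% higher and 46.2% lower, so most genes passed this threshold.

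The helicases lay in a narrow band. Their log2 ratios ran between -0.78 and 0.80 with an SD over genes of 0.37, against 0.87 over all genes. The median ratio was 0.09 for the helicases and -0.03 for all genes, and the median size of a difference, whatever its sign, was 0.26 for the helicases and 0.40 for all genes. Small differences were common, with 20 of 40 helicases between -0.25 and 0.25, where 33.9% of all genes lay. The arrays gave the same sign for 22 members above 0 and 15 below 0, and different signs for 3. They differed by a median of 0.0472 and by at most 0.201 in a member's log2 ratio.

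**Figure D1:**
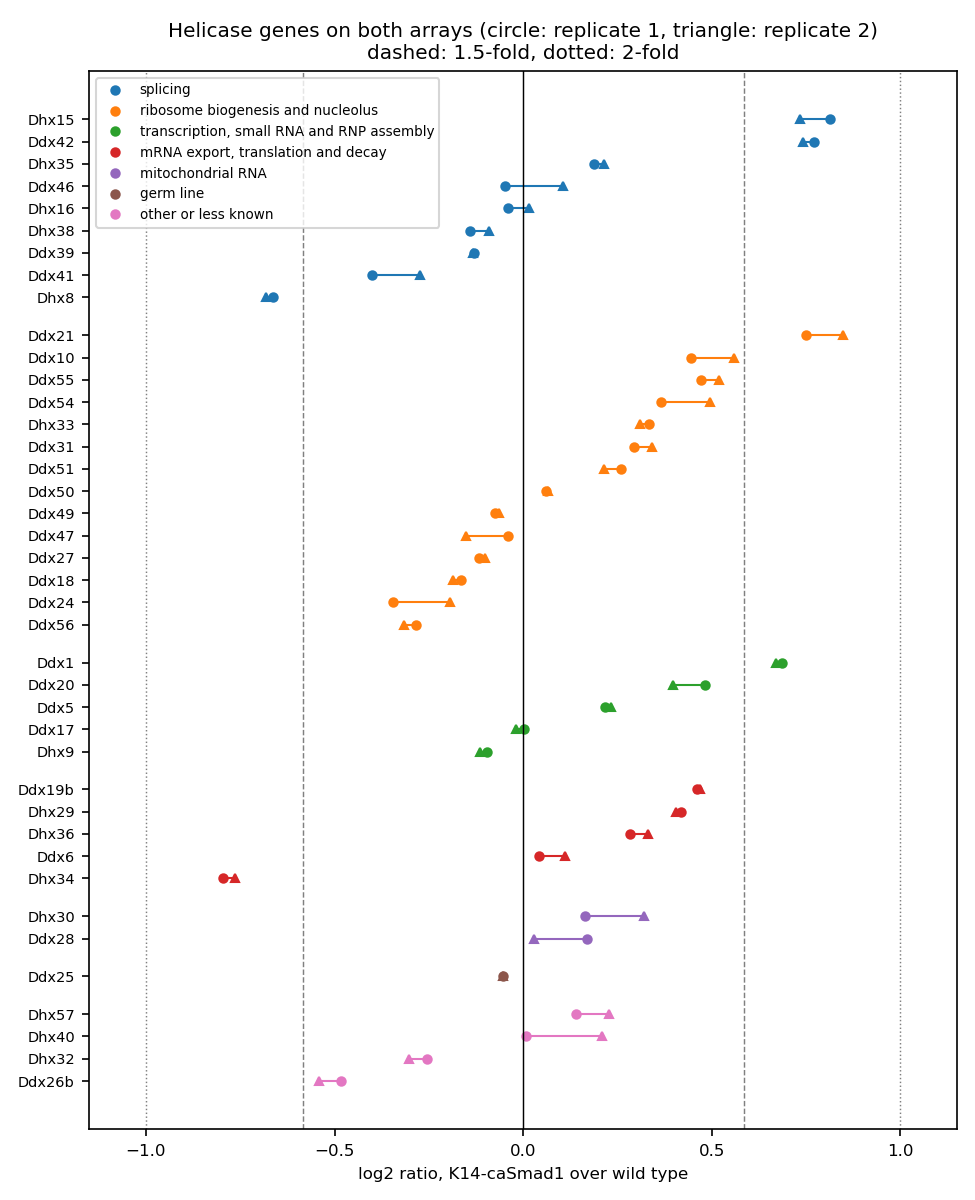
Log2 ratio of K14-caSmad1 over wild type (horizontal axis) for the 40 helicase genes tested, grouped by role, with a circle for replicate 1 and a triangle for replicate 2. Ddx21, Dhx15, Ddx42 and Ddx1 lie beyond the dashed 1.5-fold line on the right on both arrays, Dhx34 and Dhx8 beyond the one on the left, and no member reaches the dotted 2-fold lines.

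**Figure D2:**
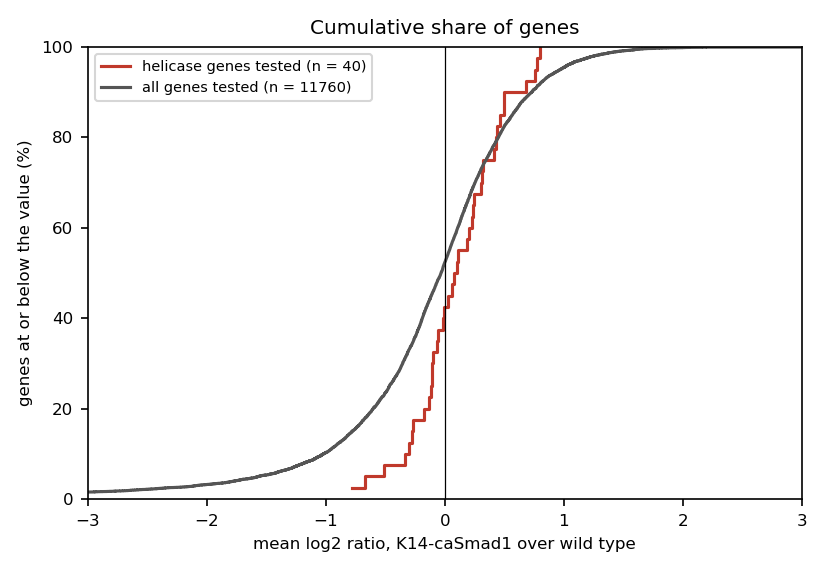
Cumulative share of genes (vertical axis, percent) at or below a mean log2 ratio of K14-caSmad1 over wild type (horizontal axis, cut at -3 and 3), for the 40 helicase genes and all 11760 genes tested. The helicase curve is the steeper one, with an SD over genes of 0.37 against 0.87, and it ends at 0.80.

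The probes behind the call for some of these genes are given with their sequences and deposited positions. Neither was checked against transcripts. Dhx34, a helicase of nonsense-mediated mRNA decay that fell, was read by 3 tested probes on the minus strand of chromosome 7 (mm9). The first lies at chr7:16784024-16784226 and spans a gap in the genome, and the other 2, at chr7:16782660-16782719 and chr7:16782650-16782709, share the 50 bases printed in capitals.
Dhx34 upstream probe: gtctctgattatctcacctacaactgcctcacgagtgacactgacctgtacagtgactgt
Dhx34 first overlapping probe: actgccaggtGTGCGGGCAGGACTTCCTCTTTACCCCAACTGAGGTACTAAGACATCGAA
Dhx34 second overlapping probe: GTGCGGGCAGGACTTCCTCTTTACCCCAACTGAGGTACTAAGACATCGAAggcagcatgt

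Dhx15, a helicase that takes the spliceosome apart and that rose, was read by 2 tested probes on the minus strand of chromosome 5 that share the 40 bases in capitals. The file places the first at chr5:52542012-52543103 and part of the second at chr5:52541448-52541472 (mm9). The 2 probes of Dhx15 are thus no independent readings of its mRNA.
Dhx15 first probe: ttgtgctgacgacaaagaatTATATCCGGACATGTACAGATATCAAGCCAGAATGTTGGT
Dhx15 second probe: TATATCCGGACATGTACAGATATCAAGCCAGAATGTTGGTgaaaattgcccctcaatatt

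Ddx42, Dhx8 and Ddx1 each had 1 tested probe, so each of these calls turns on 1 sequence. Those of Dhx8 and Ddx1 are printed here. The Dhx8 probe lies at chr11:101625631-101626125 on the plus strand and the Ddx1 probe at chr12:13227617-13230518 on the minus strand (mm9), both across a gap in the genome.
Dhx8 probe: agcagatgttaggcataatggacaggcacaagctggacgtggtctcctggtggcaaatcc
Ddx1 probe: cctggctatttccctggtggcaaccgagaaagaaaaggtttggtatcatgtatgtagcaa

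Among the spliceosome helicases, 9 of 10 were tested, 2 rose and 1 fell, with a median log2 ratio of -0.01. The called share was 33.3%, near the 32.7% of all genes tested. Dhx15 had normalized log2 levels of 12.83 and 12.91 in K14-caSmad1 cells and 12.02 and 12.18 in wild-type cells. Its log2 ratio was 0.81 and 0.73 on the arrays, 0.77 on average, or 1.71-fold. The second probe gave 0.83. Ddx42, which works with the SF3B complex of the spliceosome, had levels of 12.26 and 12.09 in K14-caSmad1 cells and 11.49 and 11.35 in wild-type cells. Its log2 ratio was 0.77 and 0.74, with a mean of 0.76 or 1.69-fold. Dhx8, which releases finished mRNA from the spliceosome, had levels of 9.22 and 9.04 in K14-caSmad1 cells and 9.88 and 9.72 in wild-type cells. Its log2 ratio was -0.66 and -0.68, with a mean of -0.67, or 1.59-fold lower.

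Dhx15 and Dhx8, both of which act late in splicing, thus stood on opposite sides. Dhx16, which drives the spliceosome to its first cutting step, had the smallest ratio of these genes by its brightest probe, -0.04 and 0.02 with a mean of -0.01. Its other tested probe gave a mean of -0.90, described below with the probes. The other tested members were Dhx35, Ddx46, Dhx38, Ddx39 (now Ddx39a) and Ddx41, and all 5 missed the call, with means between -0.34 for Ddx41 and 0.20 for Dhx35.

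The nucleolar helicases of ribosome production were the largest group, with 14 of 16 tested, 1 that rose and 0 that fell, and a median log2 ratio of 0.15. The called share was 7.14%, against 32.7% of all genes tested. Ddx21, which links the making of ribosomal RNA with its processing, had levels of 10.41 and 10.81 in K14-caSmad1 cells and 9.66 and 9.96 in wild-type cells. Its log2 ratio was 0.75 and 0.85, with a mean of 0.80 or 1.74-fold, the highest of the helicases when each was read by its brightest probe. Averaged over its tested probes, Ddx21 had 0.48 and Dhx15 0.80. Ddx50, the paralog of Ddx21, lies on the same strand of chromosome 10. By its brightest probe Ddx50 had the smallest ratio of this group, 0.06 and 0.07 with a mean of 0.06, while its other tested probe gave -0.68.

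The other members of the nucleolar group missed the call and were split between the sides of 0. Ddx10 (mean 0.50), Ddx55 (0.50), Ddx54 (0.43), Dhx33 (0.32), Ddx31 (0.32) and Ddx51 (0.24) had positive values. Ddx49, Ddx47, Ddx27, Ddx18, Ddx24 and Ddx56 had negative ones, between -0.30 for Ddx56 and -0.07 for Ddx49. Ddx10 was the only tested member not well above background in all 4 channels, since its wild-type signal passed that mark on 1 array. With the scanner's processed signals Ddx10 gave 1.32 and Ddx55 0.96, both past the call, and Ddx21 gave 1.17.

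Of 6 helicases of mRNA export, translation and decay, 5 were tested and 1 fell, with a median log2 ratio of 0.31. The called share was 20%, against 32.7% of all genes tested. Dhx34 had levels of 10.57 and 10.50 in K14-caSmad1 cells and 11.36 and 11.26 in wild-type cells. Its log2 ratio was -0.80 and -0.76, with a mean of -0.78, or 1.72-fold lower. The other tested probes, whose sequences are given above, gave means of -0.87 and -1.18. The probe at -1.18 was well above background on 1 of 2 arrays in K14-caSmad1 cells. Ddx6, the repressor of translation that partners the decapping machinery, had the smallest ratio here, 0.04 and 0.11 with a mean of 0.08. Ddx19b, which works at the nuclear pore, Dhx29, which helps ribosomes scan structured mRNA leaders, and Dhx36, which unwinds G-quadruplexes, missed the call with means of 0.46, 0.41 and 0.31.

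All 5 helicases of transcription, small RNA and RNP assembly were tested, and 1 rose, with a median log2 ratio of 0.22. The called share was 20%, against 32.7% of all genes tested. Ddx1, a subunit of the tRNA ligase complex, had levels of 13.20 and 12.87 in K14-caSmad1 cells and 12.52 and 12.20 in wild-type cells. Its log2 ratio was 0.69 and 0.67, with a mean of 0.68 or 1.60-fold. Ddx17, a transcriptional coactivator and microRNA factor, had 0.00 and -0.02 with a mean of -0.01, the smallest ratio of any helicase by its brightest probe. Its relative Ddx5 had a mean of 0.22 with its brightest probe. Ddx20, which takes part in the assembly of small nuclear RNPs, and Dhx9, a helicase of transcription and RNA structure, missed the call with means of 0.44 and -0.11.

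Both mitochondrial helicases, which help to assemble the mitochondrial ribosome, were tested and missed the call. Dhx30 had log2 ratios of 0.16 and 0.32, with a mean of 0.24, and Ddx28 had 0.17 and 0.03, with a mean of 0.10. In these 2 genes the arrays differed by more than the median of the family.

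Ddx25, known from male germ cells, was the 1 tested of 2 germ-line helicases, at -0.05 on both arrays. Among 4 tested members of other or less known function, Ddx26b had the largest difference. This gene, now named Ints6l, is a relative of a subunit of the Integrator complex and was included by its array name. It had -0.48 and -0.54, with a mean of -0.51, just short of the call, while Dhx40 had 0.01 and 0.21, with a mean of 0.11. Dhx57 and Dhx32 had means of 0.18 and -0.28.

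No probe of the remaining 10 members passed the filter, since neither genotype gave a signal well above background on both arrays. They were Ddx11, Ddx19a, Ddx23, Ddx4, Ddx52, Ddx58, Ddx59, Ddx60, Dhx37 and Dhx58. All 3 helicases that sense viral RNA or act beside the sensors, Ddx58 (RIG-I), Dhx58 (LGP2) and Ddx60, were among them, as was the germ-line marker Ddx4. Ddx4 and Ddx52 were well above background on 1 K14-caSmad1 array, and the other 8 on 0 arrays. These signals give no order between genotypes.

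Different probes of 1 gene did not always tell the same story, and 10 members had several tested probes. The probes of 4 of these genes spread over more than 0.5 on the log2 scale, as did those of 44.6% of the 2822 genes with several tested probes. Ddx5 and Dhx9 below are named after their values were seen.

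Dhx16 showed the widest spread. Its brightest probe, at chr17:36029477-36029536 (mm9, plus strand), gave -0.04 and 0.02, while the other, at chr17:36027989-36029378, gave -0.84 and -0.97, with a mean of -0.90. The lower-reading probe resembles the probe of Dhx38, a splicing helicase related to Dhx16, at chr8:112075529-112075997 on the minus strand. Capitals mark the 36 of 60 bases that are identical at the same position.
Dhx16 lower-reading probe: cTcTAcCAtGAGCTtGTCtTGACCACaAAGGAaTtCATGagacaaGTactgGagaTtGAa
Dhx38 probe: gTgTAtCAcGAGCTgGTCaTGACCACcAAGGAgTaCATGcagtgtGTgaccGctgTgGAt
The Dhx38 probe itself gave a mean of -0.12, with -0.14 and -0.09 on the arrays. Whether either probe also binds the other gene's RNA was not tested.

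Ddx50 gave 0.06 with its brightest probe and -0.68 with another, whose signal stood clear of background in K14-caSmad1 cells on 1 array and in wild-type cells on 2. Ddx21 gave 0.80 with its brightest probe, at chr10:62043317-62043376 on the minus strand (mm9). Its other tested probe, at chr10:62050774-62050833, gave a measured mean of 0.15. The wild-type signal of that probe was not well above background. The bound taken for it, 1.11-fold higher in K14-caSmad1 cells, is this measured mean as a fold and no separate reading. The call for Ddx21 thus came from 1 of its probes, and with the mean of both probes the value was 0.48, under the call.

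Ddx5 went the other way, with 0.22 for its brightest probe and 0.75 and 0.77, a mean of 0.76, for a second probe nearer the 3′ end. That probe became the brightest with the scanner's processed signals, which gave 0.80 for Ddx5, past the call. Dhx9 gave -0.11 with its brightest probe and a measured 0.37 with a second one. The wild-type signal of the second probe was not well above background, so it passed the filter through K14-caSmad1 cells alone. Its bound, at least 1.20-fold higher in K14-caSmad1 cells, thus gives no direction for Dhx9. Ddx46, Dhx36, Dhx15 and Ddx27 had probes within 0.24 of each other.

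The place of a probe along the gene was set against these differences, since amplified RNA is often shortened from the 5′ side. In 6 of 10 helicase genes the tested probe nearest the 3′ end had the higher ratio, with a median difference of 0.23. Over the 2786 genes with several tested probes on 1 strand this was so in 55.1%, with a median difference of 0.08 and quartiles of -0.31 and 0.47. Dhx16, Ddx50, Ddx21 and Ddx5 were the 4 helicases with the largest differences, between 0.53 and 0.89, all with the higher ratio at the 3′ probe. Differences over 0.5, whatever their sign, were about as common in these helicases (40%) as in the 2786 genes (40.7%). The part of RNA quality in these values was not tested.

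**Figure D3:**
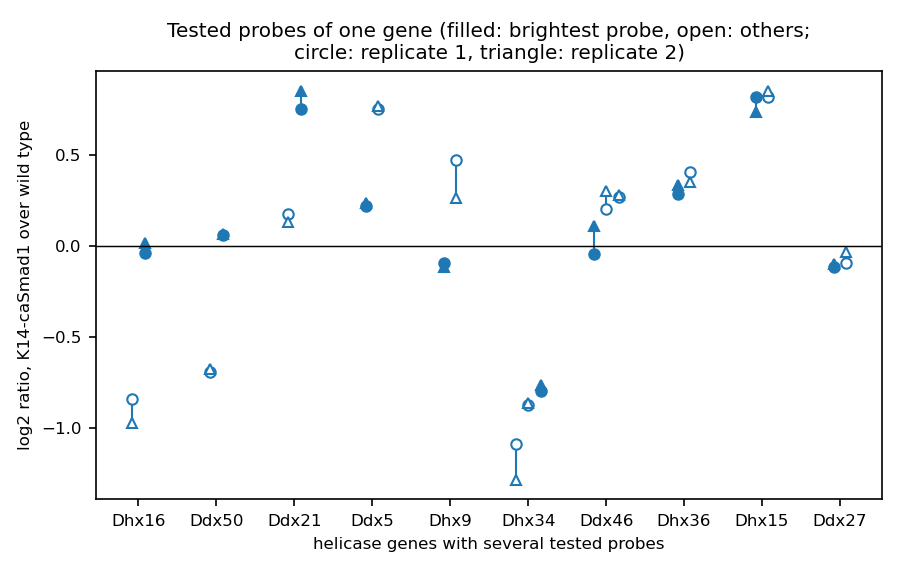
Log2 ratio of K14-caSmad1 over wild type (vertical axis) for each tested probe of the 10 helicase genes with several, with filled symbols for the brightest probe, open ones for the others, circles for replicate 1 and triangles for replicate 2. The probes of Dhx16 lie at -0.01 and -0.90 on average, those of Dhx34 are all below -0.75, and the arrays lie close together for nearly every probe.

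Genes that work with the helicases were counted from lists chosen by role. Of 17 helicases of the same superfamily under other names, 10 were tested, 2 rose and 1 fell, with a median of 0.25. Mtrex, the helicase of the nuclear RNA exosome, rose by 1.06 on the log2 scale, above the highest member of the Ddx and Dhx genes. Ascc3 rose by 0.69, and Skiv2l, the helicase of the cytoplasmic exosome, fell by 0.83. Among partners and G-patch cofactors, 3 of 27 tested rose and 3 fell, with a median of -0.18. Those that rose were Magoh (0.88), a core protein of the exon junction complex, Rbm17 (0.86), a splicing factor, and Cnot1 (0.81), the scaffold of the main deadenylase.

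Of 31 core spliceosome genes tested, 5 rose and 5 fell, with a median of 0.14. The called genes of this list with the largest differences were Snrpb (1.11), Snrpd2 (-1.05) and Snrpg (0.98). They encode Sm proteins, which form the ring of small nuclear RNPs. Of 48 ribosome biogenesis factors, 8 rose and 2 fell, with a median of 0.14. Npm1 (1.19) and Ncl (0.90), abundant proteins of the nucleolus, rose, and Wdr12, a factor of the large subunit, fell by 1.35.

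Of 14 mRNA export genes, 2 rose, Alyref (1.60), the adaptor that binds the export helicases, and Ncbp2 (0.77), a cap-binding protein, with a median of 0.10 over the list. Of 40 genes of mRNA decay and decapping, 9 rose and 7 fell, with a median of 0.12. Lsm5 (1.38), Cnot6 (1.02) and Lsm6 (0.96) had the largest values. Upf1, the helicase with which Dhx34 works in nonsense-mediated decay, fell by 0.74 and is named after its value was seen. The lists overlap, with 7 tested genes in 2 of them, Upf1 and Cnot1 included.

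Of 13 genes of the RNA sensing pathway, 2 rose, Trim25 (0.85) and Irf9 (0.84), and 1 fell, Zbp1 (-1.13), with a median of -0.01. Of 14 genes of nuclear RNA processing complexes, Ints1 (-0.81) and Ints3 (-0.74) of the Integrator fell and 0 rose, with a median of 0.11. Read against the 32.7% of all genes called, decay genes were called in 40% and spliceosome genes in 32.3%. The other lists were called in 14.3% to 30% of genes, and no test was made of a list.

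The promoters of the helicase genes were searched for short motifs in the 250 bases before the start of RefSeq transcripts (GRCm38.p6), on both strands. Of the 50 members, 44 had a promoter, with 55 windows in all. The ETS core CCGGAAG stood in 29.1% of the windows of helicases and in 6.91% of all 32851 windows. The CCAAT box, CCAAT, stood in 43.6% of helicase windows and 33.8% of all, the E-box CACGTG in 10.9% and 6.02%, and the TATA box TATAAA in 7.27% and 12.4%. GGCGCC, a GC-rich element bound by Smad1, stood in 14.5% of helicase windows and 9.59% of all. Each motif was counted on its own, so matches of different motifs may overlap.

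The promoters of Ddx1 and Dhx15, genes that rose and that have 1 start site each, are shown as examples of the 2 most frequent motifs. Of the other called genes, Ddx42, which rose, had CCAAT boxes, an E-box and the GC-rich element GGCGCC over its windows. Dhx34, which fell, had CCAAT boxes and an ETS core over its windows. Ddx21, which rose, and Dhx8, which fell, had none of the motifs searched. In Ddx1, at chr12:13249175-13249424 on the minus strand, capitals mark the ETS core, which begins 25 bases before the start. In Dhx15, at chr5:52190547-52190796 on the minus strand, capitals mark the CCAAT box, which begins 77 bases before it.
Ddx1: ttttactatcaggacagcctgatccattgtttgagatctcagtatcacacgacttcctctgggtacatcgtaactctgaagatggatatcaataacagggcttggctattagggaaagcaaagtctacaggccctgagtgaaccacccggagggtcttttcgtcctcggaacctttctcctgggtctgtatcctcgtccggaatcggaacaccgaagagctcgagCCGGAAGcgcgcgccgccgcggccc
Dhx15: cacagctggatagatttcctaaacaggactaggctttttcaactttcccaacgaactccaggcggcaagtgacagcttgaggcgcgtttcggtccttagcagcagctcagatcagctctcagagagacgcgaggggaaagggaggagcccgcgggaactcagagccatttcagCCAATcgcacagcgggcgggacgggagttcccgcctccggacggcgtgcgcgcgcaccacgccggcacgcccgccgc
The matches are descriptions of these windows, and binding of a factor was not measured.

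Many cell type markers differed between genotypes by more than any helicase. Of 6 keratinocyte markers 5 rose, with a median of 1.60, while 7 of 7 hair shaft genes fell, with values from -5.27 to -1.48. All tested melanocyte (4), adipocyte (2) and erythroid (2) markers fell, as did 3 of 4 fibroblast and 2 of 3 endothelial ones, and 2 of 3 leukocyte markers rose. In RNA of bulk cells, fewer cells of a type and less RNA per cell cannot be told apart, and the part of cell makeup in the helicase ratios was not tested. Smad1 itself had a log2 ratio of 0.28 and 0.26, with a mean of 0.27, and whether its probe also reads the transgene was not tested.

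Of the 6 called helicases, Dhx15, Ddx42 and Ddx1 were called in 11 of 11 alternative ways of processing the arrays. Ddx21 and Dhx34 were called in 9 and Dhx8 in 8. Centring each array on its median in place of loess moved the median of all genes to 0.22. Dhx34 then had -0.47 and Dhx8 -0.42, so that 0 helicases fell, against 12.7% of all genes, and 11 rose (27.5%), against 24.8% of all genes. Ddx21, Dhx15 and Ddx42 were then past 2-fold, with 1.10, 1.07 and 1.06. These were 7.5% of the helicases, against 9.44% of all genes that were 2-fold higher. With background estimated from all spots, Ddx21 (0.55), Dhx34 (-0.56) and Dhx8 (-0.41) missed the call. The absence of helicases past 2-fold thus depends on the processing. With the scanner's processed signals Ddx10 (1.32), Ddx21 (1.17) and Dhx8 (-1.18) were past 2-fold. That was 5% of helicases higher, against 10.7% of all genes, and 2.5% lower, against 15.9%. In that setting 9 helicases rose (22.5%), against 22.9% of all genes, adding Ddx5, Ddx10, Ddx19b, Ddx55 and Dhx36 (0.82) to the 4 named above.

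**Figure D4:**
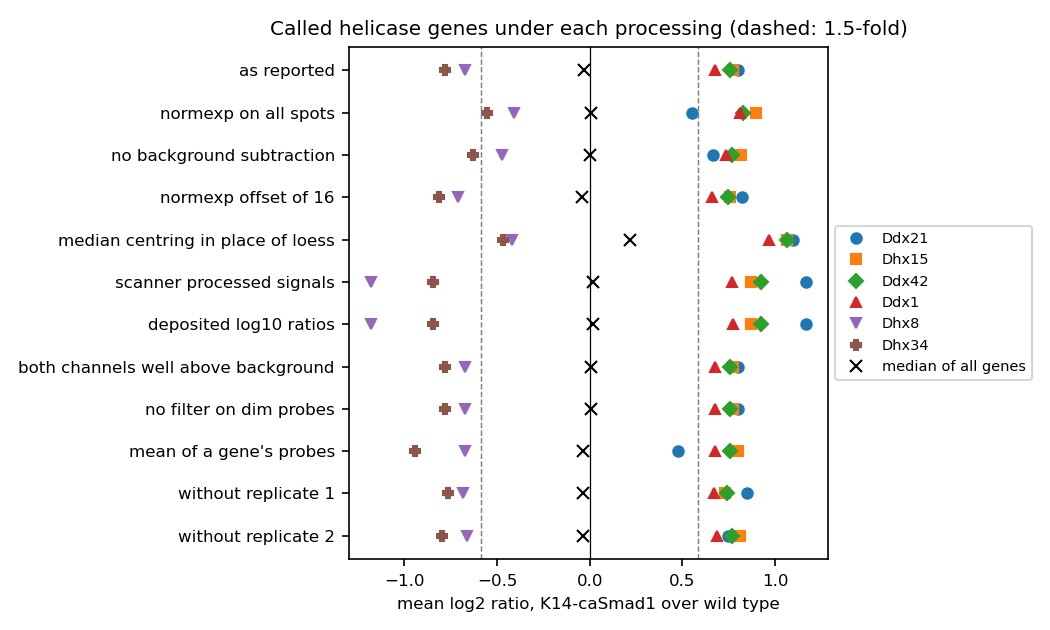
Mean log2 ratio of K14-caSmad1 over wild type (horizontal axis) for the 6 called helicases as reported and under 11 alternative settings (vertical axis), with crosses for the median of all genes and dashed lines at 1.5-fold. Dhx15, Ddx42 and Ddx1 stay beyond the line in all of them, Dhx34 and Dhx8 move inside it with median centring, and all 6 keep their side of 0.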

How the data were processed

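The scanner files hold per-spot intensity of each channel and its local background without normalization, and processed signals that the software had background-subtracted, detrended and dye-normalized, per the file headers. The deposited table holds log10 ratios of Cy5 over Cy3, turned to log2 here as an alternative, with a slope of 1 on the processed-signal ratio on both arrays. Its medians were 0.023 on replicate 1 and -0.01 on replicate 2. From the deposited intensities, log2 ratios were made with limma 3.58.1 in R 4.3.3: normexp (offset 50) on mean signal and median local background without 36 spots on a non-uniform background of replicate 1, then loess (span 0.3) with weight 0 for controls. Feature outliers were left out and repeated spots averaged.

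Tested were probes that 1 channel at least showed well above background on both arrays, and the brightest tested probe stood for its gene. Levels are per-channel log2 values after loess and Aquantile. The mean was tested with lmFit and eBayes, and p-values were adjusted over all genes by Benjamini-Hochberg with a threshold of 0.05. For a bound ("at least") the bright channel was set against the dim probe's own signal or, where that was lower, the weakest signal that the scanner marked as well above background; bounds are open to dye bias. The fit was tested on simulated data. In each channel the background that normexp estimated lay below the median of 153 negative controls (569.3 against 1017 in K14-caSmad1 and 181.3 against 318.3 in wild type on replicate 1), which understates ratios of dim probes. No gene spot was saturated. The number of arrays limits the precision.

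Named were all called members, the largest and smallest ratio of each role, members not tested, and up to 3 called genes of each list with the largest ratios. The members, roles and lists were chosen with earlier results of these data known. Sequences are from the scanner files (mm9) and RefSeq (GRCm38.p6). Alternatives were other backgrounds, normalizations, filters, probe rules and each array alone.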

Additional observations from a re-analysis of the deposited data

How the results depend on the processing

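Against 4 helicases that rose, 2 that fell and a median log2 ratio of 0.09, median centring gave 11, 0 and 0.36, processed signals gave 9, 2 and 0.23, and the deposited log10 ratios gave 8, 2 and 0.21. The shares of all genes that rose and fell were 13.2% and 19.5% as reported, 24.8% and 12.7% with median centring, and 22.9% and 25.3% with processed signals as with deposited ratios. At 2-fold 3 helicases were called in each of these 3 settings. With median centring 7.5% were higher, against 9.44% of all genes, and 0% lower, against 6.9%. With processed signals and with deposited ratios 5% were higher, against 10.7% of all genes. In the same settings 2.5% were lower, against 15.9% and 16% of all genes. Limma's 18 higher and 12 lower became 33 and 3 with median centring, and the lower ones became 6 with both processed signals and deposited ratios. For limma the shares of all genes in the alternative settings are not given here. Normexp on all spots gave 3 that rose and 0 that fell (8.17% and 7.3% of all genes), and 4 higher and 0 lower by limma. At an unadjusted limma p under 0.05 that setting had 7 higher and 1 lower. Without background subtraction 1 fell (13.9% of all genes). Leaving out either replicate gave 4 that rose and 2 that fell, with medians of 0.05 to 0.11, and limma could not be run on 1 array. All 6 called helicases kept their sign in the 11 settings. Of the uncalled members 15 had values on both sides of 0, but relative to the median of all genes in each setting 6 did; median centring moved that median to 0.22. The cause of these moves was not tested. No paired analysis was possible because the arrays form 1 group of ratios; a slide block or dye swap was not possible with 1 slide and 1 dye orientation. Values near background are limited by the signal of negative controls.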
